A study of Bombyx mori with 2 samples.

Results

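Glucose-methanol-choline (GMC) oxidoreductases were followed through 4 gene models of the silkworm gene set, out of 12376 gene models with a level in the deposited table. The 4 were taken by gene identifier. *BGIBMGA012997* and *BGIBMGA012863* carry the BLAST name glucose dehydrogenase [acceptor]-like, and *BGIBMGA013002* and *BGIBMGA013009* have as best hit an unnamed protein of the monarch butterfly *Danaus plexippus* and are assigned to the GMC family by the study. All 4 were chosen by the difference between the same libraries that is described here. So the size and direction of their differences are descriptions and carry no test.

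The libraries were made from heads of pre-molting 2nd instar larvae. The first was from the *nm2* mutant, which arose in the variety C603, has a deletion within the coding part of *BmCPG10*, a gene for a cuticular protein, and does not molt in the 2nd instar. The other was from the wildtype C603, which develops normally. Each is 1 library from a pool of 6 larvae, with no other treatment, so genotype, larval state and differences between the pools cannot be told apart. Levels are FPKM (fragments per kilobase of gene model, scaled to the fragments of the library). They allow for gene length, so levels of different genes can be set side by side. Reads that match several of these related genes were shared out between them by an estimate, so each level of a family gene carries that uncertainty. A single library per strain gives no spread between replicates and no test between the strains.

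GMC oxidoreductases are flavoproteins that bind FAD through a nucleotide-binding fold near the amino terminus and oxidise an alcohol group of a sugar, of choline, of a sterol or of another small molecule. In *Drosophila melanogaster*, glucose dehydrogenase is needed for the adult to leave the puparium. In some other caterpillars a glucose oxidase of this family is secreted by the labial glands of the head into the saliva. In the silkworm, ecdysone oxidase of this family turns ecdysone into 3-dehydroecdysone, a step in the inactivation of the molting hormone.

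The study designed a pair of qRT-PCR primers for each of the genes without a named hit. They are printed here because they are sequences of *BGIBMGA013002* and *BGIBMGA013009*, whose hits give no gene name. The study used them to check its sequencing levels, and those measurements were not used here. Each is written from 5′ to 3′, in lower case throughout since no part of it is singled out.
BGIBMGA013002 forward: tttccaaagatacggatcaaggc
BGIBMGA013002 reverse: ttataatggtcggcatgacactcg
BGIBMGA013009 forward: tcttgcacccaaaatcaaaaggtc
BGIBMGA013009 reverse: gctttgtgtataattttgctccgta

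The members divided into 1 gene that was abundant in the *nm2* mutant and 3 genes that were abundant in the wildtype. *BGIBMGA012997* had 203 FPKM in the *nm2* mutant and 6.2 FPKM in the wildtype. This gene matched a RefSeq gene (LOC101741674) that carries the synonym GMCbeta2. *BGIBMGA013009* had 0.89 FPKM in the *nm2* mutant and 126 FPKM in the wildtype, and *BGIBMGA013002* had 2.31 FPKM in the *nm2* mutant and 77.2 FPKM in the wildtype. *BGIBMGA012863* had 0.16 FPKM in the *nm2* mutant and 33.2 FPKM in the wildtype. The gene that was high in 1 strain was thus low in the other for each of the 4, and none was listed at 0 in either library.

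The reads behind these values were recovered from FPKM and coding length, with library totals that were themselves estimated. In the *nm2* mutant *BGIBMGA012997* rested on 1517 reads, *BGIBMGA013002* on 17, *BGIBMGA013009* on 7 and *BGIBMGA012863* on 1. In the wildtype *BGIBMGA013009* rested on 919 reads, *BGIBMGA013002* on 528, *BGIBMGA012863* on 198 and *BGIBMGA012997* on 43. The low value of each gene therefore set the width of its interval. All intervals are exact 95% intervals that cover counting error only, and they say nothing of the spread between pools of larvae.

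**Figure D1:**
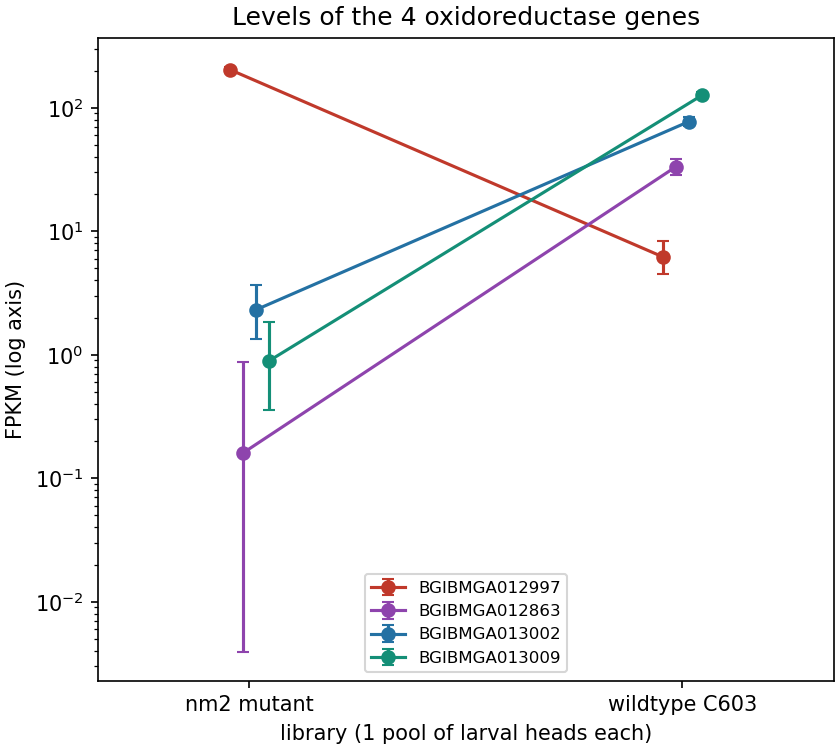
FPKM of the 4 genes on a log axis, with the *nm2* library on the left and the wildtype library on the right. Points are single libraries and bars are exact 95% Poisson counting intervals. *BGIBMGA012997* lies at 203 and 6.2 FPKM, whereas *BGIBMGA013009*, *BGIBMGA013002* and *BGIBMGA012863* lie between 0.16 and 2.31 FPKM in the *nm2* mutant and between 33.2 and 126 FPKM in the wildtype.

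*BGIBMGA012997* was 32.8-fold higher in the *nm2* mutant, with a counting interval from 24.2 to 45.5. *BGIBMGA013002* was 33.4-fold lower, with an interval from 20.7 to 57.9. *BGIBMGA013009* was 141-fold lower, with an interval from 68.3 to 353. *BGIBMGA012863* was 208-fold lower, with an interval from 37.8 to 8464 that is wide because of the single *nm2* read. The intervals of *BGIBMGA013002* and *BGIBMGA013009* did not overlap, whereas that of *BGIBMGA012863* overlapped both. With the reads mapped to genes as totals it was 56.0 to 1687 and no longer overlapped that of *BGIBMGA013002*, which was 23.3 to 48.1. With 1 FPKM added to both values, which shrinks the fold of a gene close to 0, the fold of *BGIBMGA012863* was 29.5 and that of *BGIBMGA013009* was 67.1.

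On the log2((*nm2* + 1)/(wildtype + 1)) scale the differences were 4.83 for *BGIBMGA012997*, -4.56 for *BGIBMGA013002*, -4.88 for *BGIBMGA012863* and -6.07 for *BGIBMGA013009*. Genes were called higher or lower where either library reached 5 FPKM and the difference on this scale was 1 or more in size, here called 2-fold. All 4 members reached 5 FPKM, 1 of them counted as higher and 3 as lower. Over the series 9158 genes reached 5 FPKM, of which 8.83% were higher and 15.0% were lower. Since the members were chosen on this difference, nothing is read from their count. Ordered by difference among the 9158 genes, *BGIBMGA012997* stood 21st from the top, and *BGIBMGA013009* stood 50th, *BGIBMGA012863* 90th and *BGIBMGA013002* 107th from the bottom.

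The gene that came first in the order of levels in the *nm2* mutant came last in the wildtype. In the *nm2* mutant *BGIBMGA012997* was first, 88.0-fold above *BGIBMGA013002* (counting interval 54.8 to 152). There *BGIBMGA013002* lay 2.60-fold above *BGIBMGA013009*, with an interval from 1.02 to 7.40, and *BGIBMGA013009* lay 5.56-fold above *BGIBMGA012863*, with an interval from 0.734 to 257 that holds 1. The last pair in the *nm2* mutant was therefore not separated beyond counting error. In the wildtype *BGIBMGA013009* was first, 1.63-fold above *BGIBMGA013002* (1.46 to 1.82), which lay 2.32-fold above *BGIBMGA012863* (1.97 to 2.75). *BGIBMGA012997* was last in the wildtype, 5.36-fold below *BGIBMGA012863* (3.84 to 7.63). No wildtype pair had an interval that held 1.

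Percentiles were taken in each library over the 12376 gene models with a level, so models at 0 in both libraries are left out. *BGIBMGA012997* stood at percentile 95.1 of the FPKM of the *nm2* mutant and at percentile 34.6 of those of the wildtype. *BGIBMGA013009* stood at percentile 13.7 in the *nm2* mutant and 91.5 in wildtype larvae, *BGIBMGA013002* at 22.6 and 87.5, and *BGIBMGA012863* at 5.91 and 74.6, again with the *nm2* mutant first. The coding lengths were 1875 bases for *BGIBMGA012997*, 1851 for *BGIBMGA013002*, 1974 for *BGIBMGA013009* and 1617 for *BGIBMGA012863*.

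By BLAST name, together with the 2 members without a named hit, the GMC family held 34 gene models, and 30 of them were not members. They included 2 named ecdysone oxidase and 1 named neither inactivation nor afterpotential protein G, a protein needed in *Drosophila melanogaster* for the making of the visual pigment chromophore. The other named models were glucose dehydrogenases. Of the 34, 26 were above 0 in both libraries, 5 were above 0 only in the *nm2* mutant and 3 only in the wildtype. Over all 12376 gene models, 520 were above 0 only in the *nm2* mutant and 625 only in the wildtype. Most of the family models were weakly expressed, since 22 stayed under 5 FPKM in both libraries. Some models share their best hit, such as *BGIBMGA012862* and *BGIBMGA012863*, so the number of models can exceed the number of genes.

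Of the 12 family genes at 5 FPKM or more, 3 were higher, 6 were lower and 3 were within 2-fold. Without the members the counts over 8 genes were 2 higher and 3 lower, with 3 within 2-fold. The median log2 difference of the 12 was -1.30, against -0.30 over the 9158 genes, and it was 0.010 for the 8 genes that are not members. The median log2 ratio over genes that reached 5 FPKM in each library was -0.28. With this set to 0, the same 12 family genes had a median of -1.04, with 5 higher and 6 lower. On that scale 14 family genes reached 5 FPKM, with 6 higher, 6 lower and a median of 0.085, so the sign of the median turned with the entry of *BGIBMGA000068* and *BGIBMGA013005*, and the series had 1151 higher and 929 lower genes in place of 809 higher and 1371 lower.

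Among the other family genes that were higher in the *nm2* mutant, *BGIBMGA000158*, the ecdysone oxidase that had the highest *nm2* level of the family, had 271 FPKM in the *nm2* mutant and 37.2 FPKM in the wildtype. In these libraries that is 7.27-fold higher, with an interval from 6.34 to 8.37 for counting error alone. The study also measured *BGIBMGA000158* by qRT-PCR and marks that result as contradictory to its sequencing. That measurement was not used here. *BGIBMGA010461*, named glucose dehydrogenase-like, had 10.4 FPKM in the *nm2* mutant and 1.85 FPKM in the wildtype (5.64-fold, 3.05 to 11.4). The intervals of both lie below that of *BGIBMGA012997*, which had the largest positive difference of the 12 genes. As *BGIBMGA012997* was chosen by its difference, nothing is read from this order.

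Among those that were lower, *BGIBMGA009924* had 10.6 FPKM in the *nm2* mutant and 41.6 FPKM in the wildtype (3.92-fold lower, 3.06 to 5.08), and *BGIBMGA013006* had 1.85 and 13 FPKM, the *nm2* value first (7.03-fold lower, 4.68 to 10.8). Both are named glucose dehydrogenase-like, and their intervals lie below those of the 3 members that were lower. Those members were chosen by their differences, so nothing is read from this order either. *BGIBMGA012862* is listed at 0 in the *nm2* mutant and had 15.2 FPKM in the wildtype. Its best hit is the protein hit by *BGIBMGA012863*, its neighbour in number, and both were low in the *nm2* mutant. Whether they are pieces of 1 gene was not tested. For *BGIBMGA012862* no coding length was used here, so no reads were recovered and no fold is given.

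The remaining 3 family genes at 5 FPKM or more stayed within 2-fold. *BGIBMGA013000* had 74.1 FPKM in the *nm2* mutant and 44.0 FPKM in the wildtype, *BGIBMGA009925* had 15.3 and 8.31 FPKM, and *BGIBMGA010515* had 7.89 and 13.6 FPKM, with the *nm2* value first in each pair. The first 2 passed 2-fold, as higher, only when that median ratio was set to 0, at log2 differences of 1.02 and 1.07. All 3 are named glucose dehydrogenase-like.

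**Figure D2:**
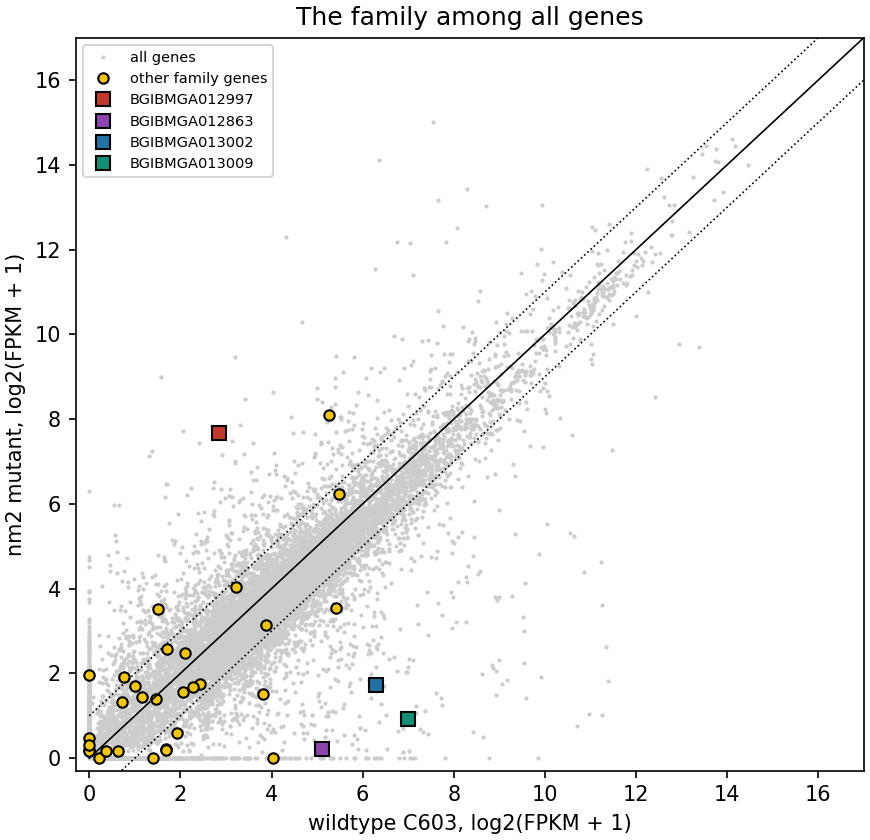
log2(FPKM + 1) of each gene in the wildtype library (horizontal) and in the *nm2* library (vertical), with all 12376 genes in grey, the 30 other family genes as circles and the 4 members as squares. The solid line marks equal levels and the dotted lines a difference of 1 on this scale. *BGIBMGA012997* lies above the lines at a difference of 4.83, and the 3 other members lie below them at differences from -4.56 to -6.07.

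Summed over the 34 models, the family had 629 FPKM in the *nm2* mutant and 449 FPKM in the wildtype, a ratio of 1.40. The make-up of this sum also differed, which follows in part from the choice of the members by their differences. In the *nm2* mutant *BGIBMGA000158* held 43.1% of it, *BGIBMGA012997* 32.3% and *BGIBMGA013000* 11.8%, or 87.2% together. *BGIBMGA013009*, *BGIBMGA013002* and *BGIBMGA012863* together held 0.534% in *nm2* and 52.6% in the wildtype. In the wildtype *BGIBMGA012997* held 1.38%, *BGIBMGA000158* 8.29% and *BGIBMGA013000* 9.79%. Taken alone, the members summed to 207 FPKM in the *nm2* mutant and 242 FPKM in the wildtype. The 30 other models summed to 422 FPKM in the *nm2* mutant and 206.9 FPKM in the wildtype, a ratio of 2.04. Of this, *BGIBMGA000158* alone had 271 FPKM in the *nm2* mutant and 37.2 FPKM in the wildtype. Its difference in FPKM is larger than that of either sum. The ratios of 1.40 and 2.04 therefore rest on this gene and do not describe the rest of the family.

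**Figure D3:**
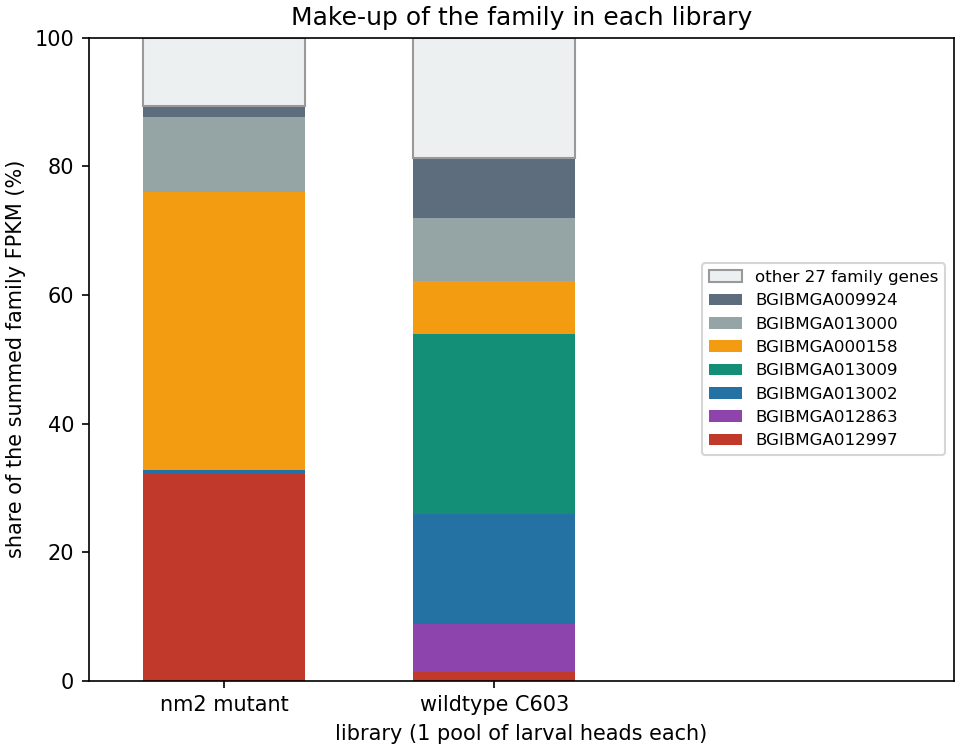
Share of the summed FPKM of the 34 family models held by each gene, in percent, for the *nm2* library (left) and the wildtype library (right). *BGIBMGA012997* and *BGIBMGA000158* take 32.3% and 43.1% of the *nm2* bar, and *BGIBMGA013009*, *BGIBMGA013002* and *BGIBMGA012863* together take 52.6% of the wildtype bar and 0.534% of the *nm2* bar.

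Of the members, 3 carry numbers that lie close together in the gene set. The numbers from *BGIBMGA012996* to *BGIBMGA013009* hold 12 gene models of the table, of which 10 are family genes. Of its family genes, 5 reached 5 FPKM, of which *BGIBMGA012997* was higher, *BGIBMGA013002*, *BGIBMGA013006* and *BGIBMGA013009* were lower, and *BGIBMGA013000* was within 2-fold. Over all genes at 5 FPKM or more, 8.83% were higher and 15.0% lower. Only *BGIBMGA013006* and *BGIBMGA013000* of these genes are not members. The presence of both directions in the run follows from the choice of the members, so nothing is read from it or from the counts. The other 5 stayed under 5 FPKM in both libraries, the highest of them *BGIBMGA013005* with 4.99 FPKM in the *nm2* mutant and 2.24 FPKM in the wildtype. The 10 family genes of the run summed to 290.4 FPKM in the *nm2* mutant and 269 FPKM in the wildtype. This difference was much smaller than those of the 3 members in the run, which were chosen by their differences.

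The run also holds 2 models whose hits carry no family name and which are not members. Whether they belong to the family was not tested. The hit of *BGIBMGA013001* is an unnamed protein of *Danaus plexippus*, as are those of *BGIBMGA013002* and *BGIBMGA013009*, which were counted as family genes because they are members. *BGIBMGA012996*, next to *BGIBMGA012997*, had 0.06 FPKM in the *nm2* mutant and 4.44 FPKM in the wildtype. *BGIBMGA013001*, next to *BGIBMGA013002*, had 0.23 FPKM in the *nm2* mutant and 2.77 FPKM in the wildtype. Outside the run, the L-asparaginase-like gene *BGIBMGA012995* had 8.39 and 3.91 FPKM and the protein phosphatase 4-like gene *BGIBMGA013010* had 19.1 and 32.6 FPKM, with the *nm2* value first. Both were within 2-fold on the log2(FPKM + 1) scale.

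The RefSeq genes of the assembly ASM3026992v2 were used for names and order only. Of the 34 family models, 7 had a best hit among its proteins in the same version, and *BGIBMGA012997* was the only member among them. In that order the matches of *BGIBMGA013006*, *BGIBMGA013000* and *BGIBMGA012997* stood on 1 chromosome, with 2 genes between the last pair and 10 between the outer pair, and the matches of *BGIBMGA013010* and *BGIBMGA012995*, to other versions of the proteins, lay on either side. *BGIBMGA012863*, *BGIBMGA013002* and *BGIBMGA013009* were not matched. The neighbours of *BGIBMGA012862* and *BGIBMGA012863* in number, the cuticular protein gene *CPH30* (*BGIBMGA012861*) and the peptidoglycan recognition protein gene *PGRP* (*BGIBMGA012864*), matched genes of the same chromosome, 60 and 66 genes away from the match of *BGIBMGA012997*. *CPH30* had 385 FPKM in the *nm2* mutant and 142 FPKM in the wildtype, and *PGRP* had 60.2 FPKM in both, so neither was lower in the *nm2* mutant.

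**Figure D4:**
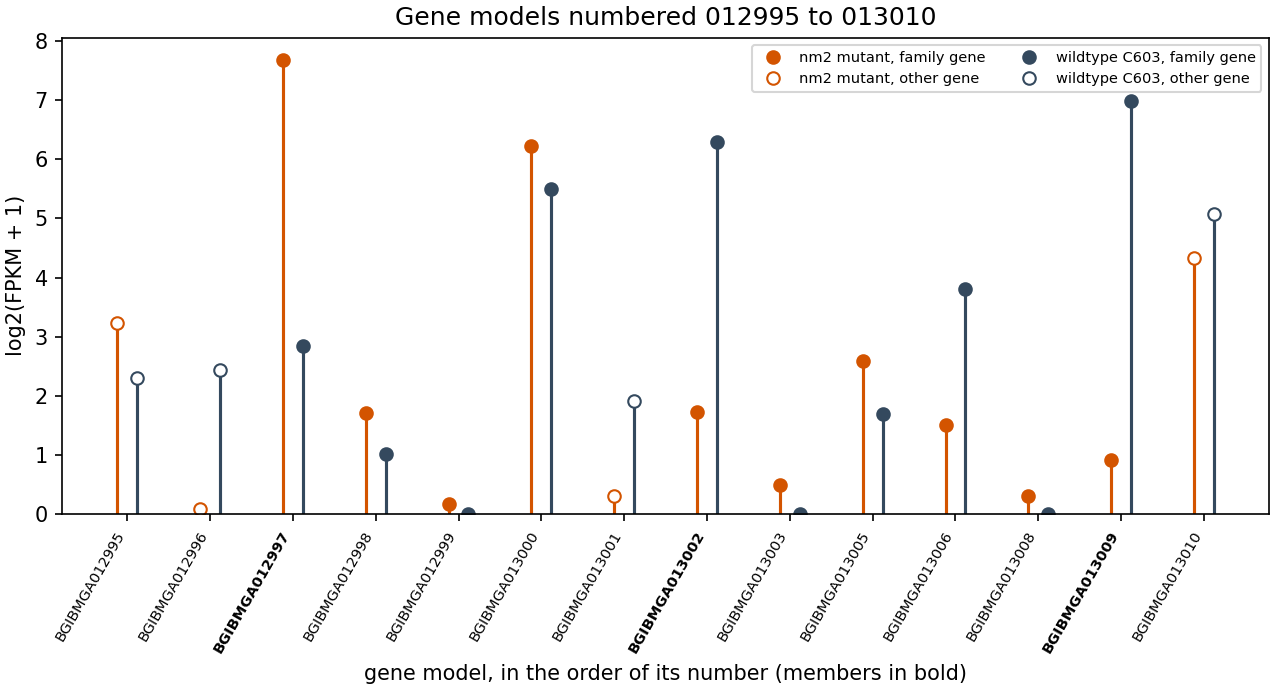
log2(FPKM + 1) of the gene models numbered from *BGIBMGA012995* to *BGIBMGA013010*, in the order of their numbers, with the *nm2* library left of the wildtype library for each gene. Filled points are family genes and open points other genes. *BGIBMGA012997* is tall in the *nm2* mutant (203 FPKM) and *BGIBMGA013002* and *BGIBMGA013009* in the wildtype (77.2 and 126 FPKM), while *BGIBMGA013000* is tall in both.

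The genes with the most similar pair of levels were found by the distance between pairs of log2(FPKM + 1), over the 2 libraries, and 3 were named for each member. For *BGIBMGA012997* they were *BGIBMGA010285*, which has no named function (179 FPKM in the *nm2* mutant and 7.78 FPKM in the wildtype), a cysteine proteinase-like gene (*BGIBMGA007040*, 230 and 8.84 FPKM) and an odorant binding protein gene (*BGIBMGA011459*, 171 and 4.28 FPKM). Their distances were from 0.34 to 0.51, so these genes were less close than those of the other members.

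For *BGIBMGA013009* the nearest genes were the glycine-rich cuticular protein gene *BGIBMGA008465* (0.92 FPKM in the *nm2* mutant and 119 FPKM in the wildtype, distance 0.083), the uncharacterized gene *BGIBMGA002624* and an acyl-CoA desaturase gene (*BGIBMGA001534*). For *BGIBMGA013002* they were *BGIBMGA010678*, a cellular retinaldehyde-binding protein gene (*BGIBMGA013017*) and *BGIBMGA013078*, all within a distance of 0.081. For *BGIBMGA012863* they were *BGIBMGA000662*, a serine protease gene (*BGIBMGA009677*) and a heparan sulfate 2-O-sulfotransferase pipe-like gene (*BGIBMGA011816*), which are listed at 0 in the *nm2* mutant. A likeness over 2 libraries is a description of levels alone.

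Genes of related pathways were taken by their BLAST names. Hexokinase and the pentose phosphate enzymes work on glucose and its phosphates. Of 12 such genes, all at 5 FPKM or more, 3 were higher and none was lower, with a median log2 difference of 0.45, where 8.83% of all genes were higher and 15.0% lower. With the median ratio of the libraries set to 0, 6 were higher, where 1151 of 9328 genes were higher. The 3 were the hexokinase-like genes *BGIBMGA004595* (7.43 FPKM in the *nm2* mutant and 1.68 FPKM in the wildtype) and *BGIBMGA011477* (55.1 and 22.6 FPKM) and transketolase (*BGIBMGA014211*, 200.3 and 97.1 FPKM). Of 8 genes of choline and glycine metabolism at 5 FPKM or more, 1 was higher and none was lower, with a median of -0.022. It was a glycine N-methyltransferase-like gene (*BGIBMGA013705*), an enzyme that methylates glycine to sarcosine, at 428 FPKM in the *nm2* mutant and 161 FPKM in the wildtype.

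Several GMC oxidases pass electrons to oxygen and form hydrogen peroxide, which catalase and peroxidases remove. Of 28 genes named catalase, peroxidase, peroxiredoxin, thioredoxin reductase or superoxide dismutase, 27 reached 5 FPKM. Their median was -0.26, against -0.30 over all genes at 5 FPKM or more. Of the 27, 5 were higher and 2 lower, where 8.83% of all genes were higher and 15.0% lower. With the median ratio set to 0, 6 were higher and 1 lower, where 1151 of 9328 genes were higher and 929 lower. The largest differences were in 3 peroxidase-like genes. *BGIBMGA000457* had 24.5 FPKM in the *nm2* mutant and is listed at 0 in the wildtype, *BGIBMGA000239* had 33.7 FPKM in the *nm2* mutant and 0.5 FPKM in the wildtype, and *BGIBMGA000238* had 70.9 FPKM in the *nm2* mutant and 2.17 FPKM in the wildtype.

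Between 12900347 and 12912619 clean reads were obtained per library, of which 60.12% in *nm2* and 55.48% in the wildtype mapped to genes. Reads with several positions made up 6.83% of the clean reads in *nm2* and 4.67% in the wildtype, and how many of them fell in this family was not tested. Ratios of the housekeeping genes *RPL3*, *GAPDH* and *BmActin3* lay between 0.849 and 1.17. Eye markers of the head were weak, with 2 of 12 genes at 5 FPKM or more, 2 at 0 in the *nm2* mutant and 1 in wildtype larvae, and summed levels of 73.3 FPKM in the *nm2* mutant and 71.4 FPKM in the wildtype. For the counts that follow, 8.83% of all genes at 5 FPKM or more were higher and 15.0% lower. Of the neuronal markers 4 were higher and 4 lower among 23 of 58 at 5 FPKM or more, and they summed to 784 FPKM in the *nm2* mutant and 730 FPKM in the wildtype. Of the fat body markers 15 were higher and 3 lower among 25 of 40 at 5 FPKM or more, with 4 at 0 in the *nm2* mutant and 7 in wildtype larvae, and they summed to 36183 FPKM in the *nm2* mutant and 14411 FPKM in the wildtype. Of the cuticular proteins 40 were higher and 26 lower among 82 of 146, with 30 at 0 in the *nm2* mutant and 17 in wildtype larvae, and they summed to 120584 and 42260 FPKM, the *nm2* mutant first. Smaller differences were seen in muscle markers at 19389 and 27614 FPKM, silk gland markers at 7775 and 5900 FPKM and midgut markers at 1682 and 1385 FPKM, again with the *nm2* mutant first. All marker lists were taken by BLAST name. The midgut list holds genes named peritrophin or vacuolar ATPase, and whether these are particular to the midgut was not tested. The part of the tissues in the levels of the 4 genes was not tested. In such bulk samples fewer cells of a type and less RNA per cell cannot be told apart.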

How the data were processed

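The authors removed adapter reads, mapped single-end reads of 49 bases on the SilkDB gene models, ran RSEM and deposited FPKM values for 12376 genes in 1 library per strain. The deposited mapping table gives the clean read counts and percentages. The authors' ratios, P-values, FDR and enrichments were not used. Versions and the genome build are not given in the sources used here.

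Differences are log2((*nm2* + 1)/(wildtype + 1)), with 5 FPKM in a library and an absolute value of 1 as limits. Reads were recovered for genes with a deposited coding length (genes the authors called different), by the library total and the length deduction that gave whole reads. These were 4060000 and 3770000 reads in the *nm2* mutant and the wildtype and 36 bases, with 96.0% of 224 and 89.5% of 152 low values within 0.1 of a whole number. The totals lie below the 7755689 and 7163921 reads mapped to genes in the same order, so the intervals may be wider than those of the true reads. Intervals for ratios are exact conditional binomial. The recovery, intervals and counts were tested on simulated data. The search for library totals did not extend as far as the reads mapped to genes, and the simulated totals lay within the searched range. The simulation therefore cannot show that the recovered totals, and the read numbers that rest on them, are the true ones.

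Members and lists were chosen with earlier results of these data known. The named genes are the members, family genes at 5 FPKM or more or beside the members, 3 nearest genes per member, up to 3 genes per related list, and 3 housekeeping genes. Alternatives were other scales (TPM, median ratio, housekeeping genes), pseudocounts (0.1 and 0.01), limits on low FPKM (none, 1 and 20), a fold of 4, other family lists, the full coding length and the mapped reads as totals. Intervals were computed with SciPy 1.17.1 and figures drawn with matplotlib 3.10.9, in Python 3.11.15 with pandas 2.3.3 and NumPy 2.4.6.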

Additional observations from a re-analysis of the deposited data

How the results depend on the processing

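The scales shifted all genes by a log2 value between -0.28 and 0.039, so they could not turn the differences of the 4 members, which says nothing of their stability. The 12 family genes had 60 log2 differences under the other scales and pseudocounts. None that was beyond 2-fold could change sign, since a pseudocount keeps the sign and the shifts were smaller than 2-fold. Their sizes did change, from -3.83 to -10.57 for *BGIBMGA012862* and from -4.72 to -7.61 for *BGIBMGA012863*. With the median ratio set to 0, *BGIBMGA013000* and *BGIBMGA009925* passed 2-fold, at 1.02 and 1.07. With the median ratio set to 0, 6 of 14 family genes were higher (5 over the same 12 genes), where 1151 of 9328 genes of the series were higher. With no limit on FPKM 5 of 34 were higher and 10 lower, where 1073 of 12376 genes were higher and 1722 lower. A limit of 1 FPKM gave the same counts over 27 family genes and over 11235 genes of the series. Without the members 3 of 8 were lower, where 15.0% of all genes at 5 FPKM or more were lower. The family median was 0.085 with the median ratio set to 0 and -0.67 on the housekeeping genes, against -1.04 and -1.25 over the same 12 genes, a comparison added after seeing the data. It was -0.13 with no limit, -0.49 at 1 FPKM, -1.88 at 20 FPKM, -0.72 for the glucose dehydrogenase name alone and 0.010 without the members. The alternatives that changed the limit or the list, and the rescaling, which brought 14 and 13 genes to 5 FPKM, changed which genes were counted. Over all genes 502 were higher and 816 lower at 20 FPKM, and 296 and 436 at 4-fold. With the median ratio set to 0, also added for these lists after seeing the data, 6 pentose phosphate genes were higher and 1 hydrogen peroxide gene was lower. With the mapped reads as totals the interval of *BGIBMGA012863* was 56.0 to 1687 and ended its overlap with that of *BGIBMGA013002*, and a pseudocount of 1 FPKM gave 29.5-fold for it and 67.1-fold for *BGIBMGA013009*. No paired analysis was possible because each strain has 1 library, and for the same reason no replicate could be left out. Depth limits the low values most, with 1 to 17 *nm2* reads for the 3 members that were lower.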

Other observations

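Beyond the numbered run of family genes lie further genes with a low *nm2* level, which were looked at after their values had been seen. The alpha-tocopherol transfer protein-like gene *BGIBMGA013015*, of the family of lipid-binding transfer proteins, had 12.3 FPKM in the *nm2* mutant and 495 FPKM in the wildtype, and the cellular retinaldehyde-binding protein gene *BGIBMGA013017* had 2.15 FPKM in the *nm2* mutant and 78.0 FPKM in the wildtype. Between them, *BGIBMGA013016*, also named alpha-tocopherol transfer protein-like, had 7.41 FPKM in the *nm2* mutant and 16.6 FPKM in the wildtype. Of the models numbered between these and the family genes, *BGIBMGA013010* and *BGIBMGA013011* were within 2-fold, and the uncharacterized *BGIBMGA013014* had 7.41 FPKM in the *nm2* mutant and 16.0 FPKM in the wildtype.

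Several family genes under 5 FPKM also differed by more than 2-fold in FPKM. *BGIBMGA010516* had 0.17 FPKM in the *nm2* mutant and 2.19 FPKM in the wildtype, and *BGIBMGA014539* had 0.14 and 2.21 FPKM in the same order, on 1 read in the *nm2* mutant and 15 in wildtype larvae (15.8-fold lower, counting interval 2.49 to 680.0). *BGIBMGA012872* had 2.9 FPKM and 21 reads in the *nm2* mutant and is listed at 0 in the wildtype. Against an assumed floor of 3 counts in the wildtype library it was 6.49-fold higher. The lower limit of its counting interval was 4.84. At so few reads these values are imprecise.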
